A study of Mus musculus with 6 samples.

Results

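Open chromatin was described at 10 mouse genes for phosphodiesterases that degrade cAMP, those of the families PDE3 (Pde3a and Pde3b), PDE4 (Pde4a to Pde4d), PDE7 (Pde7a and Pde7b) and PDE8 (Pde8a and Pde8b). Of the families known to degrade both cAMP and cGMP, PDE1, PDE2, PDE10 and PDE11 were counted with the other genes of the pathway. The 10 genes were chosen by gene name and not by a measured value, from the 21853 protein-coding genes of GENCODE release M21 with an annotated start site. Each gene was taken with 50 kb to each side, and the peaks of all libraries were merged where they overlapped or adjoined. This gave 466 of 194496 merged regions. The genes have 45 of the 54361 distinct start sites of protein-coding transcripts, and a promoter peak was one that reached within 1 kb of a start site.

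ATAC-seq, which reads where a transposase can reach the DNA, was carried out on primary adipocytes from wild type male C57BL/6J mice of 3 to 4 weeks. Cells of the stromal vascular fraction were differentiated in culture and collected after 7 days, in 2 biological replicates a condition. The beige and white adipocytes came from inguinal fat and the brown adipocytes from brown fat. Per the labels, the beige and brown induction medium held 5 μg/ml insulin, 5 μM dexamethasone, 1 nM T3, 1 μM rosiglitazone and 0.5 mM isobutyl methylxanthine (IBMX), and cells then stayed in insulin, T3 and rosiglitazone. The white induction medium held 5 μg/ml insulin, 1 μM dexamethasone and 0.5 mM IBMX, and cells then stayed in insulin alone. IBMX, an inhibitor of most phosphodiesterases, was therefore present for the first 48 h in all conditions and was not in the medium at collection. The methods of the study give other insulin concentrations, which differ between the beige and white media. Per the labels, beige and brown differ in depot and not in medium. Beige and white differ in several components of the medium that cannot be told apart. The paper describes ATAC-seq of cultured white and beige adipocytes and not of brown ones. Whether the brown libraries were made together with the others is not given. A difference between brown and the other conditions can therefore not be assigned to the depot alone.

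The deposited lists held 109143 to 127490 peaks a library. Peaks were called in each library against its own background, so a fold or a q value is not on one scale across libraries. The percentile within a list, which is the share of the library's peaks ranked at or below it, was used to compare libraries. Values of -log10 q are also printed as they stand, and the threshold of 5 on them was the same for all libraries. A -log10 q of 9.50 was at the 51.5th percentile in white replicate 2 and the 40.7th in beige replicate 2. The read depth behind each list was not used here, and a missing peak can be a site below the threshold. The paper reports fewer mapped reads, and a lower mapped share, for both beige libraries than for both white ones. The effect of this on the peaks was not tested. In bulk chromatin, fewer cells with an open site and less opening per cell cannot be told apart. Promoters of 6 of 6 adipocyte markers (Adipoq, Fabp4, Plin1, Cidec, Pparg and Lipe) had a peak in every library. Of 5 brown adipocyte markers, Zic1, Lhx8, Cidea and Ppargc1a also had a promoter peak in all 6 libraries, so 4 of 5 were open in every beige and white library and 5 of 5 in the brown ones. The remaining one, Ucp1, the uncoupling protein of thermogenic adipocytes, had a promoter peak in each brown library and in none of the other 4. Promoter peaks were also present for 3 or 4 of 5 macrophage, 3 of 4 endothelial and 3 or 4 of 4 progenitor markers in each library, and the part of such cells in the values below was not tested.

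cAMP is the second messenger through which norepinephrine and β-adrenergic receptors drive lipolysis and thermogenic genes in adipocytes. Phosphodiesterases hydrolyse it and so set how long and where in the cell the signal lasts. PDE3B is the main enzyme through which insulin lowers cAMP and lipolysis in adipocytes. PDE4, PDE7 and PDE8 are specific for cAMP, and the PDE4 genes make long and short proteins from alternative promoters. PDE8 is known to be insensitive to IBMX.

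A full cAMP response element (CRE, TGACGTCA), the palindromic site bound by CREB, was more frequent in these regions than over all regions. It lay within 100 bp of the strongest summit in 14 of 466 regions (3.00%), against 0.652% of all 194496 regions. In 9 regions that were open in all 6 libraries and outside the promoters of other genes, the sequence around it is shown because these are sites near the genes that carry the element itself. Each line gives 48 bases of the plus strand of mm10 (GRCm38.p6), with the CRE in capitals. This set was chosen after its values had been seen.
Pde4b intron, first element, chr4:102432244-102432291: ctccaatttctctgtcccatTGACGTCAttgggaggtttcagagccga
Pde4b intron, second element, chr4:102511069-102511116: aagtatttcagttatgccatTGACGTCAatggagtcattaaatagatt
Pde4d intron, first element, chr13:109536858-109536905: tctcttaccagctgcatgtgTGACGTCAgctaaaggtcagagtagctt
Pde4d intron, second element, chr13:109822577-109822624: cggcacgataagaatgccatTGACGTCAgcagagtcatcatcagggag
Pde7a promoter, chr3:19311393-19311440: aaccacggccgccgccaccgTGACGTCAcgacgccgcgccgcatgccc
Pde7b intron, first element, chr10:20659463-20659510: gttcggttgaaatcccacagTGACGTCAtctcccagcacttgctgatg
Pde7b intron, second element, chr10:20673959-20674006: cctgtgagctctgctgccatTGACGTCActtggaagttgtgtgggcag
Pde8b intron, chr13:95081212-95081259: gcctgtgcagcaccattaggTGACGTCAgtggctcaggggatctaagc
Pde8b upstream, chr13:95261535-95261582: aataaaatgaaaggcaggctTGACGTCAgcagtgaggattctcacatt

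Before the CRE, 4 of the 9 sequences read ccat: both Pde4b elements, the second Pde4d element and the second Pde7b element. The element of Pde7a lay in its promoter, with the region's strongest summit 48 bp upstream of the start site, and the other 8 lay in introns or upstream of the gene.

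The regions around these elements spanned most of the range of peak strength. At the second Pde4d element (chr13:109822152-109822829) the -log10 q was 146.0 and 166.6 in beige, 94.6 and 36.6 in white and 186.6 and 131.7 in brown. These values lay at the 88.8th to 97.5th percentile of the libraries' lists, so the region was among their stronger peaks in every condition. At the second Pde4b element (chr4:102510872-102511381) the percentiles of -log10 q were 82.7 and 83.7 in beige, 86.5 and 80.7 in white and 87.7 and 85.3 in brown. Both brown values were above both beige values there, and the white values overlapped both.
At the second Pde7b element (chr10:20673699-20674169) the percentiles were 89.2 and 82.3 in beige, 77.5 and 84.4 in white and 72.0 and 75.6 in brown. Both beige values were above both brown values, and the white values overlapped the beige ones. At the first Pde4b element (chr4:102432155-102432382) the peak was weak, with a -log10 q from 3.9 to 11.4, and lay 2199 bp downstream of a start site that itself had no promoter peak. At the first Pde4d element (chr13:109536438-109537129) the percentiles were 80.5 and 76.8 in beige, 82.9 and 86.1 in white and 91.0 and 90.4 in brown. Brown was highest there and beige lowest, without overlap between the conditions. The values at the first Pde7b element and at both Pde8b elements are not given here. The share of all regions with such an order of conditions was not counted.

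The 14 regions with a CRE were 4 at Pde4d, 3 at Pde7b, 2 each at Pde4b and Pde8b and 1 each at Pde3a, Pde4c and Pde7a. The one at Pde4c was the promoter of Jund, a neighbouring gene of the AP-1 family. Pde3b, Pde4a and Pde8a had 0 such regions within 50 kb. Of the 14 regions, 10 were open in all 6 libraries, out of 154 such regions near the genes, while the share among all regions open in all 6 was 1.22%. Of 405 regions outside any promoter, 12 held the element, against 0.474% of all regions outside promoters. The regions near 50 other genes of the cAMP pathway, without those already counted, held it in 9 of 1376 cases (0.654%). None of the 24 regions open in both beige and no white library held it, where the share over all such regions was 0.606%, and none of the 24 open in both beige and no brown library did, where that share was 0.343%.

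The other motifs stood closer to their share over all regions. Each was searched on both strands in the same window. The AP-1 site TGANTCA was found in 111 of 466 regions (23.8%, against 21.2% of all) and the C/EBP site TTGCNNAA in 64 (13.7%, against 12.6%). The core of the glucocorticoid element, ACANNNTGT, was found in 40 (8.58%, against 6.96%), and dexamethasone, a glucocorticoid, was in all induction media. The nuclear receptor direct repeat core GGTCANAGG, read by PPARγ with RXR, was found in 8 (1.72%, against 1.55%). The EBF site CCCNNGGG was found in 40 (8.58%, against 9.20%) and the ETS site CCGGAAG in 12 (2.58%, against 2.35%). A full CRE is not itself a match to the AP-1 letters, and a match is a description of the sequence and not a bound site.

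**Figure D1:**
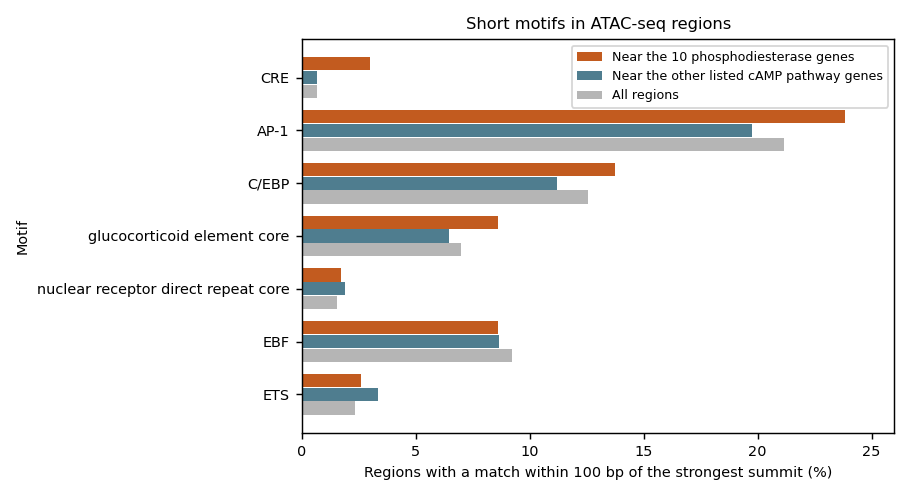
Share of regions with a motif match within 100 bp of the strongest summit (x axis, percent), for regions near the 10 phosphodiesterase genes, near the 50 other listed pathway genes and for all regions. The CRE bar of the phosphodiesterase genes is at 3.00%, against 0.654% and 0.652%, while the other 6 motifs differ less between the 3 sets in proportion.

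The regions near the genes were denser than elsewhere, at 11.0 per 100 kb of window against 7.14 over the genome. Of the 466, 316 were in introns, 25 were at exons, 54 were upstream and 71 downstream. Promoters made up 13.1% of them, against 13.2% of all regions, with 35 at the genes' own start sites and 26 at those of other genes. Peaks in all 6 libraries were found in 154 regions (33.0%, against 30.2% of all), and 153 (32.8%, against 37.2%) had a peak in 1 library. Of the regions open in either replicate of a condition, both replicates had a peak in 68.5% in beige, 55.1% in white and 66.8% in brown. Over all regions these shares were 66.9%, 57.0% and 60.7%, so white replicates shared the fewest.

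A region was counted as open in one condition over another when both of its libraries and neither of the other's had a peak. The comparisons describe how the chromatin of these genes differed between the conditions, with the limits on medium and depot given above. With 2 libraries a condition, an exact permutation test cannot give a two-sided p lower than 0.333, so the conditions were not tested against each other. Beige over white held 24 of 427 regions open in either, against 5.14% of all regions, and white over beige held 5, against 2.27%. Beige over brown held 24 of 392 (background 5.71%) and brown over beige 7 (1.85%). Brown over white held 10 of 411 (3.37%) and white over brown 13 (3.99%). The members' shares were 5.62%, 1.17%, 6.12%, 1.79%, 2.43% and 3.16% in this order. They were close to the background except in white over beige, which in proportion lay furthest below it. The order of the 2 directions was that of the whole genome in each comparison.
With a -log10 q of at least 5 in both libraries of the open condition, beige over white held 15 and white over beige 1. Beige over brown held 18, brown over beige 3, brown over white 5 and white over brown 6. The members' shares were 3.51%, 0.234%, 4.59%, 0.765%, 1.22% and 1.46% in this order. Over all regions the shares were 2.83%, 0.735%, 3.20%, 0.598%, 1.58% and 1.76%. Leaving out a library relaxes the rule and raised the counts by construction: beige over white was 62 without beige replicate 1, 51 without beige replicate 2, 43 without white replicate 1 and 48 without white replicate 2.

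In at least 1 comparison, 60 regions were counted, and Pde4d, the longest gene with the most regions, held 17 of them. This is 12.9% of the 466, against 12.5% of all regions. Pde3a held 11, Pde7b and Pde8a 7 each and Pde4b 6, while Pde3b, with the fewest regions, held 1.

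**Figure D2:**
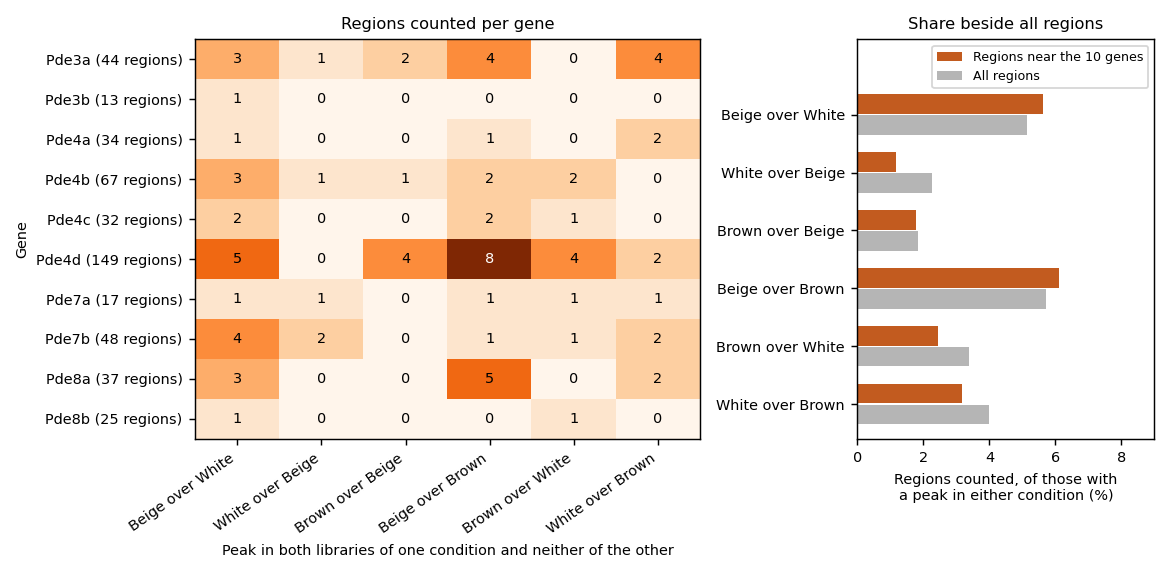
Left, number of regions open in both libraries of one condition and neither of the other (columns), for each gene (rows, with its number of regions). Right, these counts as a share of the regions open in either condition (x axis, percent) near the 10 genes and over all regions. Pde4d has 8 regions of beige over brown, and the bars of the genes lie between 1.17% and 6.12%, with the longest in beige over brown as for all regions.

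Most start sites of the genes were open in all 6 libraries or in none, as were most of all start sites. Nearby start sites of a gene can share a peak, so they are not separate observations. A promoter peak in all 6 libraries was found at 23 of 45 start sites, against 59.0% of all start sites, and in no library at 12, against 31.7%. At the level of the gene, a gene was taken as open in a library if any of its start sites was. On this count 9 of 10 were open in all 6 libraries, against 63.5% of protein-coding genes, and 0 of 10 in none, against 27.4%. More start sites give a gene more ways to be counted. The 10 genes have 45 start sites and the 21853 have 54361, and the effect of this was not tested. Pde4c was the exception, with a peak in 1 library alone. The promoter peaks were weaker than most: their median fold percentile was 59.1 to 71.0 a library, where it was 83.6 to 89.2 over all start sites with a peak.

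**Figure D3:**
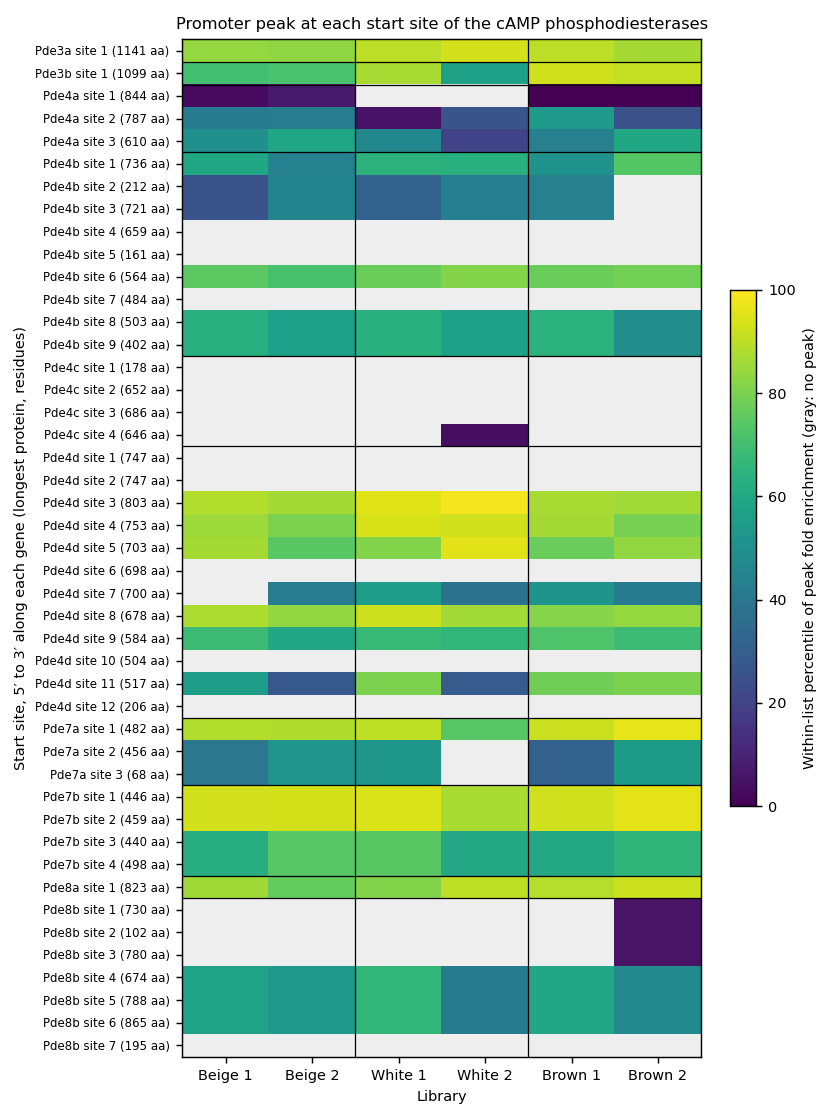
Within-list percentile of fold enrichment (color, 0 to 100) of the strongest promoter peak at each of the 45 start sites (rows, with the residues of the longest protein annotated from it) in the 6 libraries (columns), gray where there was no peak. Some of these transcripts are annotated as incomplete, so their residues can be those of a part of a protein. Rows of Pde4b, Pde4c, Pde4d and Pde8b are gray in all 6 libraries at 12 sites, and rows in color are mostly in color across the 3 conditions.

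Between conditions, 20 own promoter regions that were open in all 6 libraries were compared by percentile of fold. Both brown percentiles were above both beige ones in 7 of 20 (background 31.6%) and both beige above both brown in 1 (18.6%). Both white were above both beige in 5 (21.4%) and both beige above both white in 2 (26.9%). Both brown were above both white in 3 (31.8%) and both white above both brown in 5 (17.6%).

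Of the PDE3 enzymes, which cGMP inhibits, Pde3b (ENSMUSG00000030671.9, chr7:114415281-114539251) is the one known for antilipolysis in adipocytes. Its only annotated start site was open in all 6 libraries, with a fold percentile of 69.7 and 71.2 in beige, 87.0 and 57.0 in white and 92.7 and 90.9 in brown. Brown was above both other conditions without overlap, and the white replicates lay further apart (72.0 ± 21.2, SD, n = 2) than the means of beige (70.4 ± 1.08) and brown (91.8 ± 1.30). The -log10 q of this peak was 142 and 107 in brown, 56.0 and 72.7 in beige and 64.6 and 19.8 in white. Of its 13 regions 1 was counted, an intronic region at chr7:114479779-114480139 with a -log10 q of 18.2 and 10.4 in beige, 16.8 in brown replicate 1 and no peak in white or in brown replicate 2. The highest-ranked region of its window was the promoter of the neighbour Cyp2r1.

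Pde3a (ENSMUSG00000041741.10, chr6:141249269-141507448), known from heart, platelets and oocytes, also had 1 start site. It was open in all libraries, with a fold percentile of 84.2 and 83.3 in beige, 90.0 and 93.2 in white and 89.9 and 86.4 in brown. Beige was lowest there without overlap with the other conditions, while white and brown nearly met. An intronic region at chr6:141447638-141447882 had a -log10 q of 26.7 and 34.3 in beige, 15.9 in white replicate 2 and no peak in white replicate 1 or in brown. A second such region, at an exon (chr6:141488752-141488929), had 6.8 and 7.9 in beige and 5.2 in white replicate 2. Both were open in beige over brown, with the white replicates divided. Another intronic region, at chr6:141333194-141333638, ranked highest of the 44, at the 89.6th to 94.7th percentile of -log10 q in every library.

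The PDE4 genes are the targets of rolipram, and their long proteins differ from the short ones by conserved regulatory regions at the amino end. Pde4a (ENSMUSG00000032177.17, chr9:21165714-21213248) had 3 start sites. At the first, of an 844-residue protein, the -log10 q was 6.9 and 11.6 in beige and 4.0 and 1.9 in brown, with no peak in white. These were weak peaks, in the lowest 7.32% of each list by fold. The region there that both beige libraries shared (chr9:21166098-21166337, 543 bp downstream of the start) was counted in beige over white. At the start of the 787-residue protein the fold percentile was 41.1 and 42.5 in beige, 4.95 and 25.8 in white and 53.9 and 24.8 in brown. At that of the 610-residue protein it was 50.1 and 59.1, 46.9 and 20.2, and 43.5 and 59.7 in the same order. Both beige values were above both white values at all 3 start sites if no peak is taken as lowest, and brown overlapped at the last 2 of them. Downstream of the gene, a region at chr9:21221607-21221846 had 23.9 and 27.6 in beige and 17.9 and 14.6 in white on the -log10 q scale and no peak in brown. Upstream, a region at chr9:21152680-21153076 had 5.9 and 8.7 in white, 4.8 in beige replicate 2 and no peak in brown. The highest-ranked region of the window was the promoter of the neighbour Cdc37.

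Pde4b (ENSMUSG00000028525.16, chr4:102087543-102607259), the form known from immune cells, had 9 start sites. The start of the 736-residue long form was open in all 6 libraries, with a fold percentile of 59.5 and 43.8 in beige, 64.4 and 63.5 in white and 51.4 and 73.5 in brown. The start of the 564-residue short form was stronger, at 74.8 and 70.8, 77.7 and 81.4, and 77.4 and 78.6, and beige was lowest there without overlap. It was also the highest-ranked region of the gene's 67. For the 503- and 402-residue forms, the strongest promoter peak lay upstream of both starts, at chr4:102588583-102589088. It was open in all libraries, at 48.9 to 64.0. The region that spans both starts, chr4:102589538-102590123, was also open in all libraries but weaker in each, at 8.79 to 39.9. The pair of sites for the 721- and 212-residue proteins had a peak in all libraries but brown replicate 2, and those for 659, 484 and 161 residues had none. An intronic region at chr4:102481166-102481385 was open in both beige libraries alone, with a -log10 q of 7.1 and 6.2. Another, at chr4:102574357-102574668, had 14.4 and 9.6 in brown and 9.5 in beige replicate 2, and no peak in white. Another intronic region, at chr4:102393522-102393906, had 7.2 and 4.2 in white and 6.3 and 5.7 in brown, and no peak in beige.

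Pde4c (ENSMUSG00000031842.14, chr8:70723720-70751186) was the one gene without an open promoter in any pair of replicates. Of its 4 start sites 3 had no peak, and that of the 646-residue protein had one in white replicate 2 alone, with a -log10 q of 3.1. Its window nevertheless held 32 regions, 15 of them open in all 6 libraries, and the strongest was the promoter of Mpv17l2. A region at chr8:70718370-70718607, at the promoter of Gm3336, had 22.3 and 21.1 in beige, 8.2 and 9.7 in brown and no peak in white. Downstream of the gene, a region at chr8:70752085-70752299 had 19.2 and 15.0 in beige and 4.8 in white replicate 2. It lay next to a region open in all 6 libraries (chr8:70752371-70753135) and was no longer counted against brown when regions under 100 bp apart were merged. Upstream, a region at chr8:70700561-70700844 was open in both beige libraries alone, with 7.0 and 7.3. None of the 3 is at a start site of Pde4c.

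Pde4d (ENSMUSG00000021699.17, chr13:108449948-109953461) had 149 regions, 53 of them open in all 6 libraries, and 12 start sites. The starts of the 803-, 753-, 703-, 678-, 584- and 517-residue proteins were open in all libraries, and those of both 747-residue proteins and of the 698-, 504- and 206-residue ones were open in none. The start of the 700-residue protein lacked a peak in beige replicate 1 alone. The strongest of them by fold, that of the 803-residue long form, stood at the percentiles 88.5 and 86.7 in beige, 94.9 and 98.4 in white and 87.0 and 86.1 in brown. White was highest there without overlap, and the same held at the start of the 753-residue form, with 85.2 and 80.2, 93.9 and 93.0, and 86.4 and 79.6. At the start of the 517-residue short form the order was different, with 56.0 and 27.5 in beige, 80.4 and 28.6 in white and 78.2 and 80.1 in brown. There brown was above beige, and the white replicates were divided. The transcripts of the 753-, 700- and 206-residue proteins are annotated as incomplete, so these lengths and starts may not be those of whole forms.

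**Figure D4:**
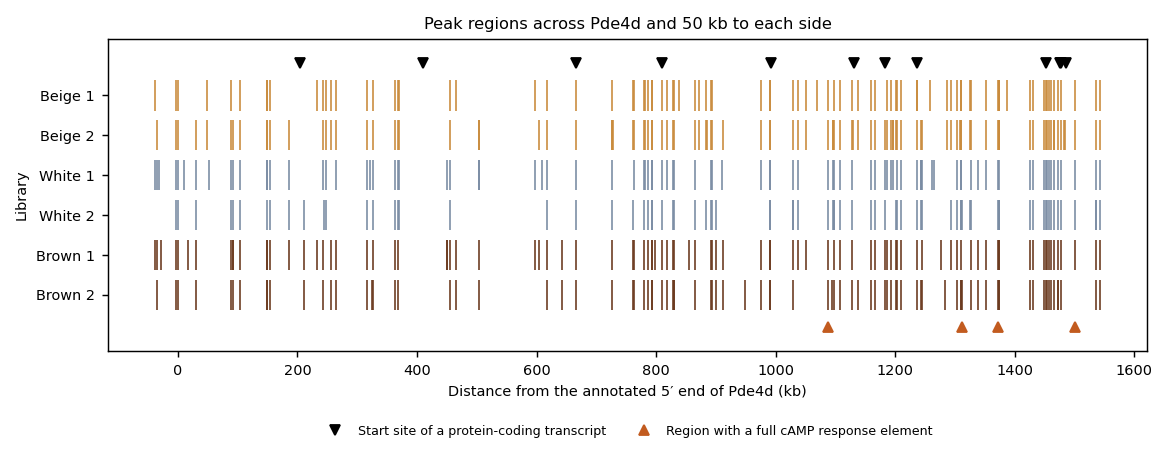
Peak regions of each library (rows; one line per region) along Pde4d and 50 kb to each side (x axis, distance in kb from the annotated 5′ end of the gene), with start sites of protein-coding transcripts above and the 4 regions with a full CRE below. Most of the 149 regions recur down the rows, 53 of them in all 6 libraries, and the 4 regions with a CRE lie in the 3′ part of the gene.

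Of the regions counted at Pde4d, an intronic one at chr13:108705513-108705790 was open in beige and brown and not in white, with a -log10 q of 10.3 and 16.0 in beige and 15.8 and 15.0 in brown. A second intronic region, at chr13:108697664-108698288, had 7.7 and 13.4 in beige and 14.7 and 16.8 in white and no peak in brown. Both lie in the same long intronic stretch, with opposite patterns in white and brown. Another, at chr13:109823399-109823569, had 10.0 and 8.3 in beige and 6.4 in white replicate 2. It lay next to a region open in all 6 libraries (chr13:109823596-109824032), and its count against brown was lost when regions under 100 bp apart were merged. The highest-ranked region was intronic too, at chr13:109775895-109776699, at the 94.0th to 97.8th percentile of -log10 q in every library.

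The PDE7 enzymes have high affinity for cAMP and are not inhibited by rolipram. At Pde7a (ENSMUSG00000069094.12, chr3:19223108-19311322) the promoter of the 482-residue protein, which holds the CRE shown above, had a fold percentile of 88.6 and 88.0 in beige, 90.6 and 74.1 in white and 92.1 and 96.4 in brown. Brown was highest there, with no overlap, and the white replicates lay on both sides of beige. The start of the 456-residue protein was open in all libraries but white replicate 2, with a -log10 q of 4.8 to 8.8. In an intron, a region at chr3:19305496-19305728 had 17.9 and 10.1 in beige, 5.6 and 3.5 in brown and no peak in white. Another, at chr3:19245739-19245960, had 17.9 and 21.2 in beige and 9.5 in white replicate 2. The promoter of the neighbour Mtfr1 ranked highest in the window, at the 99.4th percentile of -log10 q or above in every library.

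Pde7b (ENSMUSG00000019990.15, chr10:20398004-20725078) had all 4 of its start sites open in all 6 libraries. The peak at its first promoter stood at the percentiles 93.3 and 93.7 in beige, 94.5 and 87.3 in white and 93.0 and 95.9 in brown by fold, which were overlapping values among the highest of the 10 genes. The second promoter, of the 440- and 498-residue proteins, stood at 60.2 to 74.3, also with overlap. An intronic region at chr10:20630517-20630769 was the one region near the 10 genes counted in white over beige at a -log10 q of at least 5, with 12.3 and 8.9 in white and no peak in the other libraries. It lay next to a region (chr10:20630215-20630507) with 5.6 and 5.4 in white and 3.1 in beige replicate 2, and was no longer counted against beige when regions under 100 bp apart were merged. At chr10:20561968-20562425 a peak was found in beige, at 6.7 and 7.0, and in brown replicate 2, at 3.6. At chr10:20517860-20518720 it was found in brown, at 5.6 and 8.9, and in beige, at 3.0 and 4.0. The promoter of the neighbour Mtfr2 ranked highest in the window.

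The PDE8 enzymes have the highest affinity for cAMP of the family. Pde8a (ENSMUSG00000025584.17, chr7:81213596-81334533) was open at its 1 start site, with a fold percentile of 85.8 and 76.3 in beige, 81.6 and 90.6 in white and 89.0 and 92.0 in brown. Brown was above beige without overlap, and white overlapped both. This promoter was the highest-ranked region of the gene's 37, as an own promoter was for Pde4b alone among the other 9. Away from it, 5 regions were open in beige over brown. The region at chr7:81303798-81304045 had a -log10 q of 14.0 and 20.9 in beige and 14.9 in white replicate 2. That at chr7:81176388-81176699 had 17.5 and 14.4 in beige and 4.3 in white replicate 2. That at chr7:81336498-81336707 had 10.5 and 10.9 in beige and no peak elsewhere.

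Pde8b (ENSMUSG00000021684.17, chr13:95024454-95250336) was open at its inner start sites in all 3 conditions. The starts of the 865-, 788- and 674-residue proteins shared a peak, at the fold percentiles 58.1 and 54.3 in beige, 66.4 and 41.0 in white and 59.6 and 48.0 in brown, which overlapped. The most upstream starts, of the 780-, 730- and 102-residue proteins, had a peak in brown replicate 2 alone, with a -log10 q of 1.9. The transcript of the 102-residue protein is annotated as incomplete. An intronic region at chr13:95135822-95136046 had 7.9 and 12.3 in beige and 7.5 in brown replicate 1 and no peak in white. The promoter of the neighbour Wdr41 ranked highest in the window.

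**Figure D5:**
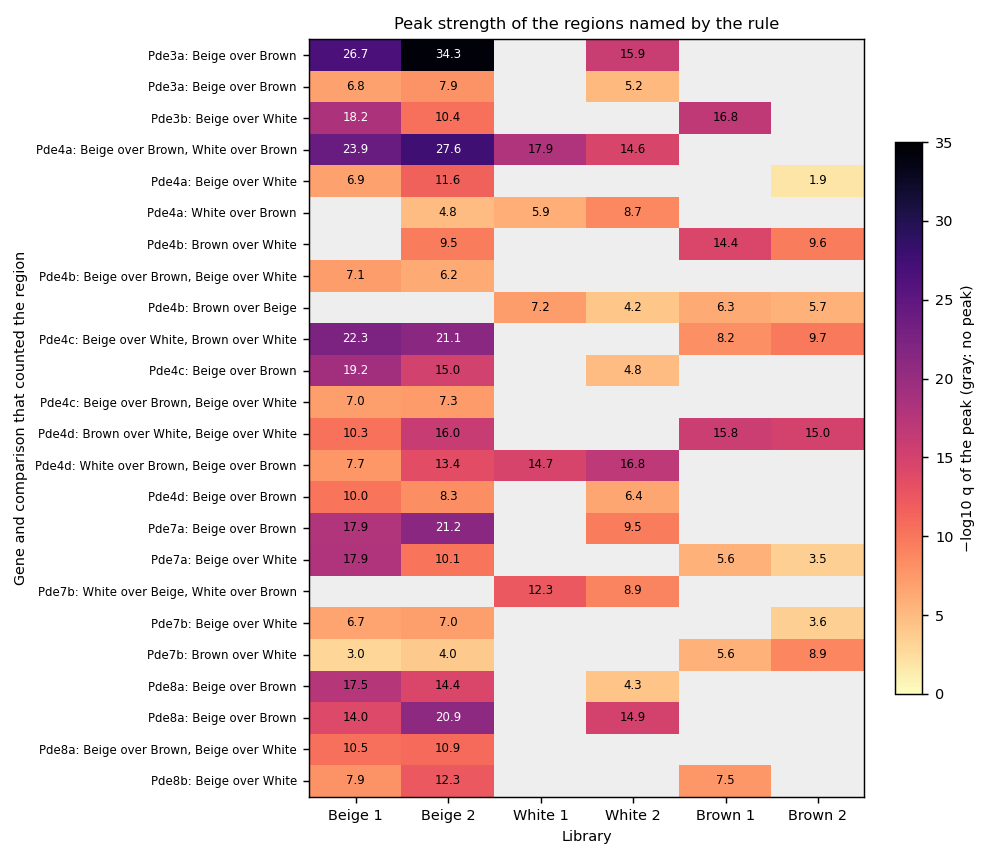
The -log10 q (color and printed values) in the 6 libraries (columns) of the regions that the naming rule chose as open in one condition over another with a -log10 q of at least 5 in both libraries of that condition (rows, by gene and comparison), gray where there was no peak. Each value is relative to its own library, and the highest is 34.3 at Pde3a in beige replicate 2.

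The AP-1 letters were found in 9 of the 24 regions open in beige over white, against 19.5% of all such regions, in the window of 100 bp to each side. Around the strongest summit of the 10 such regions named above, 151 bases held the AP-1 letters in 4, the EBF letters in 1 and no match in 5. The sequence of 4 of the 10, with and without a match, and of the 1 named region open in white over beige is given so that the letters under the summit can be read. They were picked outside exons after their matches were known, and matches to the 7 motifs are in capitals on the plus strand of mm10. Those of Pde3b, Pde4d and Pde8b hold the AP-1 letters, and that of Pde7a, also open in beige over white, holds no match in the bases shown. Outside these bases, within 100 bp of its summit, the Pde7a region has a match to the C/EBP letters. The Pde7b region, open in white over beige, holds no match in the bases shown or within 100 bp.
Pde3b intron, chr7:114479942-114480092: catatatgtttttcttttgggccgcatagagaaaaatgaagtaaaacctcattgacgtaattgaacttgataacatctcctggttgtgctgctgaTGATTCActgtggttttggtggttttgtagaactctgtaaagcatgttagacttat
Pde4d intron, chr13:108705583-108705733: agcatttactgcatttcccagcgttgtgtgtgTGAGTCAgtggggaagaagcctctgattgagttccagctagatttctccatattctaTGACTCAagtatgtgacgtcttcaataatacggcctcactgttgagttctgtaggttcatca
Pde7a intron, chr3:19305540-19305690: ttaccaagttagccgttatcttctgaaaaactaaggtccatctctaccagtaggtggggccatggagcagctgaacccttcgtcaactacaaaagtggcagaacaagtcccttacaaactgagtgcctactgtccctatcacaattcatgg
Pde7b intron, chr10:20630592-20630742: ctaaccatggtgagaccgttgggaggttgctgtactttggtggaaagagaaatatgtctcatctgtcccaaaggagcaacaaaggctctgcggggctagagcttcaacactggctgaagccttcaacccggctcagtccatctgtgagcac
Pde8b intron, chr13:95135861-95136011: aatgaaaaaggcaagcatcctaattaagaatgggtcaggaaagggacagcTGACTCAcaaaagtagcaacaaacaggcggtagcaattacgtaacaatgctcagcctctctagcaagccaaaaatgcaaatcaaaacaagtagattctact

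The enzymes that make cAMP and act on it were mostly open in all conditions. Of 50 other genes of the pathway, 42 (84%) had a promoter peak in all 6 libraries, against 63.5% of protein-coding genes, and 5 had none. These 42 included 10 of 10 adenylyl cyclases, 6 of 6 subunits of protein kinase A, 3 of 3 of its inhibitors, 4 of 4 G protein α subunits and 6 of 6 transcription factors and coactivators of the CREB group. Among these 50 genes, the 6 phosphodiesterases listed as degrading both cAMP and cGMP (Pde1a, Pde1b, Pde1c, Pde2a, Pde10a and Pde11a) had a promoter peak in all 6 libraries as well. Of 8 listed genes named after the cGMP phosphodiesterase families PDE5, PDE6 and PDE9, 2 did (Pde5a and Pde6d). Another 4, the photoreceptor genes Pde6a, Pde6b, Pde6c and Pde6g, had no promoter peak in any library. Of the 50 genes 0 had a promoter peak in both libraries of one condition and neither of another, in any of the 6 directions, where 0.302% to 0.563% of protein-coding genes did.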

How the data were processed

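The data were 6 deposited ATAC-seq peak lists, 1 per library. According to the methods of the study, the authors trimmed adaptors with Trimmomatic, aligned reads to mm10 with BWA and called peaks in each library with MACS2 at a q value under 0.05. Each line of a deposited list gives 1 summit with its fold enrichment, a ratio over the local background of that library, its -log10 p and -log10 q, and a score computed from the latter. The score and the -log10 p were not used. The lists hold no reads, so their number limits the precision.

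Intervals with several summits were counted once, at the highest -log10 q, and peaks of all libraries were merged where they overlapped by 1 bp or adjoined. Percentiles were taken within each list. Start sites came from GENCODE M21. Motifs were searched in the RefSeq GRCm38.p6 genome, within 100 bp of the strongest summit of a region. Python 3.11.15, pandas 2.3.3, NumPy 2.4.6 and matplotlib 3.10.9 were used. Merging and motif search were tested on simulated data.

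All 10 genes and their start sites are named. Regions are named singly if counted in a comparison with a -log10 q of at least 5 in both open libraries, at most 3 per gene as ranked by the lower of these values, with the highest-ranked region of each gene. The members and lists were chosen with earlier results of these data known.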

Additional observations from a re-analysis of the deposited data

How the results depend on the processing

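No paired analysis was possible because the values reported come from no test, by choice with 2 libraries a condition. At a q value under 0.00001, regions open in white over brown fell from 13 to 8. Within the gene bodies alone, which hold 344 of the regions, white over beige was 3, white over brown 8 and regions open in all 6 libraries 102; fewer regions were searched there. With the start sites of all transcripts (80 in place of 45, added after seeing the data), 39 were open in all libraries and 27 in none. When 1 library was left out, beige over white ranged from 24 to 62, white over beige from 5 to 53, brown over beige from 7 to 33, beige over brown from 24 to 69, brown over white from 10 to 41 and white over brown from 13 to 66, because fewer libraries have to agree. Under the other settings chosen with the design (a q value under 0.01, lists of equal length, summits within 100 bp, windows of 100 kb, promoters of 500 bp or by summit, the basic set of transcripts) each count of regions or start sites stayed within 1.5 times its value. The CRE was found in 16 regions with 150 bp to each side, against 0.751% of all regions. Of the 32 calls of named regions, 32 held at both stricter q values. This was fixed in advance, since the naming rule already asked for a -log10 q of at least 5 in both open libraries. With lists of equal length 32 held, and 32 by summit. When regions under 100 bp apart were merged (an alternative added after seeing the data) 29 held, which ended 1 call each at Pde4c, Pde4d and Pde7b. The lists hold 2 libraries a condition and no depth, so the absence of a peak cannot be told from one below the threshold.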

Other observations

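The letters CCAT directly before the CRE, on either strand, were looked for over the genome after 4 of the 9 printed sequences had been seen to carry them, so the counts are a description of a pattern noticed in these data. In mm10 the full CRE stands at 14499 places, and 82 of them follow CCAT. Of these 82, 4 lie within the windows of the 10 genes, 2 at Pde4b and 1 each at Pde4d and Pde7b. All 4 are inside peak regions open in all 6 libraries, 15 to 44 bp from the strongest summit at Pde4b and Pde4d and 8 bp from it at Pde7b. Over the genome, 9 of the 82 places lie inside a peak region, so 4 of the 9 are near these genes, whose windows hold 4242495 of 2647521431 sequenced bases. One of the other 5 lies at chr7:114323101-114323112, in a region open in all 6 libraries. The nearest start site to that region is of Psma1, at 47015 bp. Pde3b is 92.2 kb away, so the place is outside its window of 50 kb. The remaining 4 include a region 46 bp from a start site of Vgf and one 465 bp from a start site of Cmip, both open in all 6 libraries, and one near Tanc2 with a peak in 2 libraries. For the CRE with any letters before it, 15 of 40 places within the windows (37.5%) and 12.6% of those over the genome lie inside a peak region.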
